A study of Homo sapiens with 22 samples.

Results

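The insulin-like growth factor (IGF) axis was described here through 10 genes chosen by symbol, of 63677 genes in the expression tables. They were the ligand IGF2, the receptors IGF1R and IGF2R, the binding proteins IGFBP2, IGFBP3, IGFBP4, IGFBP5, IGFBP6 and IGFBP7, and H19, the noncoding RNA gene beside IGF2. All 10 were found, and 9 passed the filter on low values in the SH-SY5Y tables. IGFBP7 did not pass it, with 0 to 11 reads per monolayer library and 0 to 6 per sphere library.

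IGF2 is a secreted growth factor that signals to cell survival and growth through the tyrosine kinase receptor IGF1R, while IGF2R binds IGF2 and carries it to lysosomes without a kinase signal. The binding proteins hold the ligands outside the cell, prolong their life and limit or deliver them to receptors, and IGFBP6 is known for its preference for IGF2. IGF2 and H19 are neighbouring imprinted genes, and IGF2 is a known autocrine growth factor of neuroblastoma cells.

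The series measured total RNA with ribosomal RNA removed, in 22 libraries of the neuroblastoma lines SH-SY5Y and KELLY. SH-SY5Y cells carried stable short hairpin RNAs (shRNAs) against CASC15-003 or CASC15-004, transcripts of the long noncoding RNA gene CASC15, or a scrambled control, all brought in by lentivirus and selected with puromycin. They were grown as monolayers at day 7 with retinoic acid (RA), an inducer of neuronal differentiation, at day 0 without it, or as spheres. KELLY cells were given a small interfering RNA (siRNA) against SOX9 or a control siRNA.

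The monolayer groups were CASC15-003 shRNA cells (called sh003) at day 7 and at day 0 (3 libraries each), CASC15-004 shRNA cells (sh004) at day 7 and at day 0 (2 libraries each), and scrambled control cells at day 7 (2 libraries) and at day 0 (3 libraries). Each knockdown used a pair of hairpins, sh1 and sh2, so libraries of a group differ by hairpin or by batch. The sphere groups were sh003 spheres (2 libraries), sh004 spheres (2 libraries) and 1 control sphere. KELLY had 1 library with SOX9 siRNA and 1 with control siRNA. No day 7 library without RA was analysed here, so RA and time in culture cannot be told apart, and the labels differ on the serum at day 7. Nothing in the labels says that libraries of a group came from separate cultures beyond the batch numbers, so p-values measure the spread between these libraries, which may be technical.

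The hairpins below are shown because they define the knockdown groups, as the labels give them, 5′ to 3′.
sh003 sh1: ctagcactgacctccttcatt
sh003 sh2: ctttccatcagccaacaatat
sh004 sh1: caggctgttcccagggattta
sh004 sh2: taggaataccttacatccaat

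H19 is also the host of miR-675. Its mature forms, on chromosome 11, minus strand, are shown with the seed (bases 2 to 8) in capitals, from RefSeq on GRCh38.p14. They identify the host and were not measured as small RNA.
hsa-miR-675-5p, chr11:1996800-1996822: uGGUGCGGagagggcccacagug
hsa-miR-675-3p, chr11:1996768-1996787: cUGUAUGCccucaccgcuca

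Promoter windows of 300 bases, most of them upstream of a gene's start, were taken from RefSeq (GRCh38.p14), and 8 of the 10 genes had at least 1 window. The windows of the 3 genes that changed with day 7 are printed, since the day 7 results turn on them. Capitals mark the GC box GGGCGG on either strand. This motif, the nuclear receptor half-site AGGTCA and the SOX core AACAAT were searched on both strands, and none of them contains another.
IGFBP6, chr12:53097417-53097716, plus strand: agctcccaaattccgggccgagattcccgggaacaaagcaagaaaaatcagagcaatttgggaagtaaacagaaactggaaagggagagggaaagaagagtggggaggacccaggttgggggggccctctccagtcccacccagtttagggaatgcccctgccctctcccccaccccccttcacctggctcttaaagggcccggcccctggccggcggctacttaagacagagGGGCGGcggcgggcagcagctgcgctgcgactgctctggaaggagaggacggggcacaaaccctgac
IGFBP3, chr7:45921223-45921522, minus strand: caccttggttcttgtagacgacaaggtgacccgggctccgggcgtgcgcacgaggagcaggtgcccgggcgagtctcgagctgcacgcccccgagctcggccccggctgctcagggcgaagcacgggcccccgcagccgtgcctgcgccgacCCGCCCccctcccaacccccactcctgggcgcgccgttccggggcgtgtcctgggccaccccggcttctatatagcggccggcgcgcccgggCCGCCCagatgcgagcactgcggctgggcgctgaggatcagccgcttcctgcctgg
H19, chr11:2001217-2001516, minus strand: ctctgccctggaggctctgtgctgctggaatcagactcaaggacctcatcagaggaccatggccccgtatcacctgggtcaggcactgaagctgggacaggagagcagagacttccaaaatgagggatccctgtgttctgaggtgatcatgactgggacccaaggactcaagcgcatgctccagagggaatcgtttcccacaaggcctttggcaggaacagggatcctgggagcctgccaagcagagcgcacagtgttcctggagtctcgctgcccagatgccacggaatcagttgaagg

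The GC box occurred 1 time in the IGFBP6 window, 2 times in the IGFBP3 window and 0 times in the H19 window, and it was in 44.9% of 34796 promoter windows. AGGTCA was in none of these 3 windows (13.8% of all windows), and AACAAT in none of them (10.1% of all windows). Among the other windows of the IGF genes, AGGTCA occurred 1 time, in 1 of the 3 windows of IGFBP2. A match or its absence describes these letters only. IGF2 and IGFBP7 are named without a window.

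Libraries held 11.9 to 62.1 M reads (M, mega). Neuroblast markers summed to between 703 and 3026 RPKM (reads per kilobase of gene and per M reads) in every monolayer library, with 10 to 12 of 12 markers at 1 RPKM or more. Leukocyte, endothelial and epithelial marker sums reached at most 0.711 RPKM there. In monolayers the gene CASC15 lay between 1.57 and 3.38 RPKM in sh003 libraries and between 1.14 and 1.48 RPKM in sh004 libraries. Control monolayers had between 1.31 and 3.33 RPKM. Against the control of the same batch and day, CASC15 was lower in 4 of 4 sh004 and in 2 of 6 sh003 comparisons. A gene total cannot tell transcripts apart, and no knockdown passed the test for it. For 2 sh003 libraries the culture tag goes against the day in the title, and the RA-degrading enzyme gene CYP26A1 followed the title, with 687 RPKM in sh1 batch 2 at day 7 and 0.199 RPKM in sh2 batch 1 at day 0. In day 7 of sh004 sh2, CYP26A1 reached 9.001 RPKM, against 221 to 687 RPKM in the other 6 day 7 libraries. The sh004 libraries at day 0 had 0.0333 to 0.0578 RPKM of CYP26A1, so it was also higher at day 7 in sh2.

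**Figure D1:**
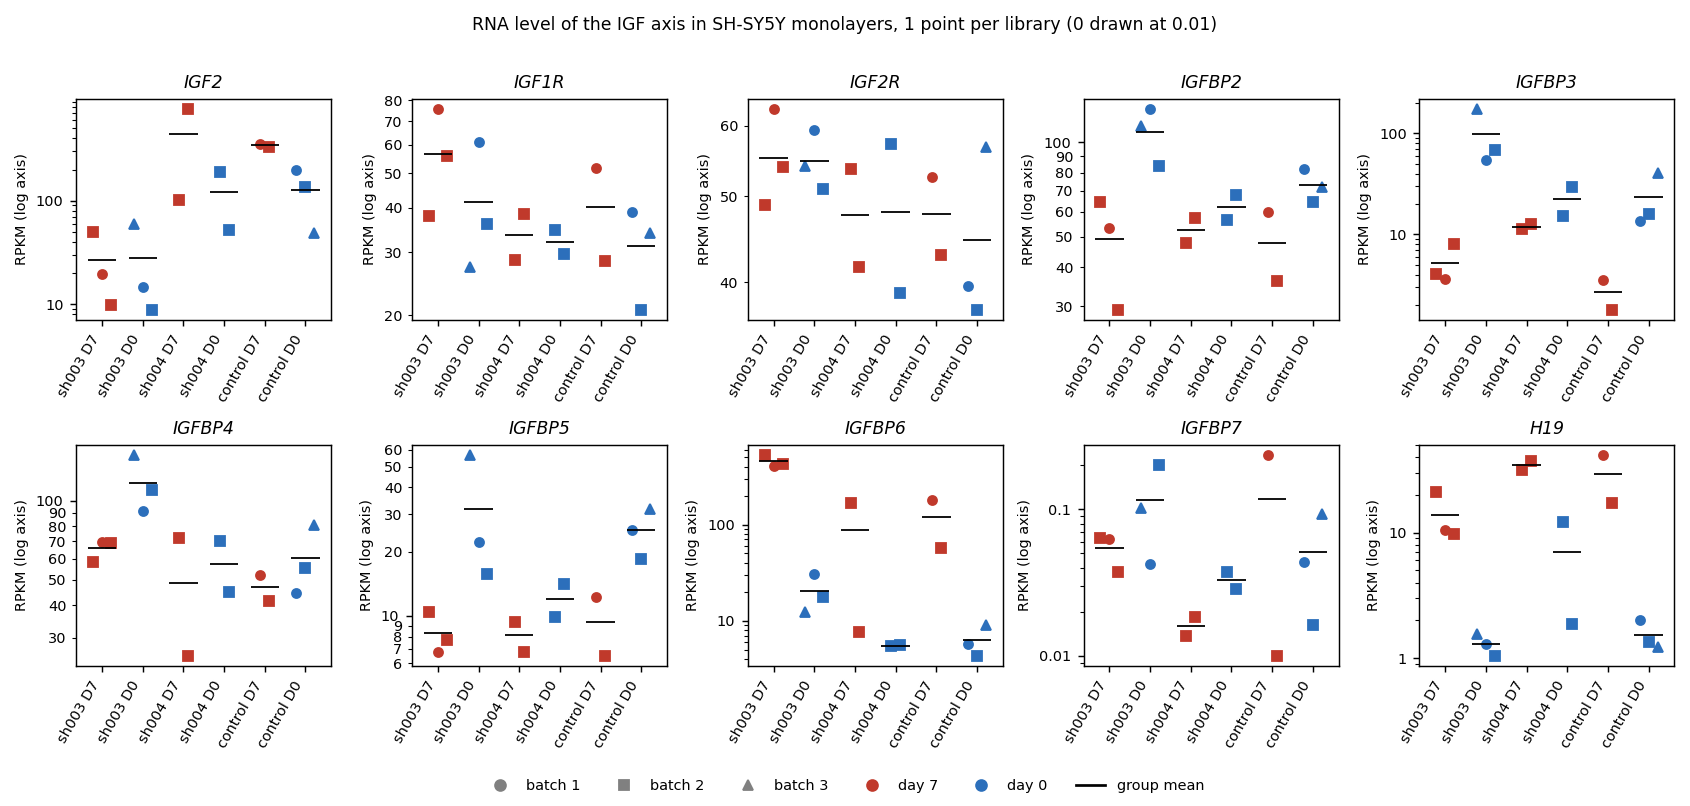
RPKM (log axis) of each of the 10 genes in the 15 monolayer libraries, 1 point per library. Red is day 7 and blue day 0, circles, squares and triangles are batches 1, 2 and 3, black lines are group means, and values of 0 are drawn at 0.01. IGFBP6 and H19 sit higher at day 7 in sh003 and control cells, and IGFBP3 sits lower there. IGF1R lies between 20.7 and 75.8 RPKM and IGF2R between 37.2 and 62.7 RPKM.

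In sh003 and control cells at day 7, IGFBP6 and H19 stood far above day 0 and IGFBP3 far below it. In sh003 cells, IGFBP6 rose by 4.56 and H19 by 2.92 on the log2 scale, and IGFBP3 fell by 4.02. With batch as a term these sh003 changes were 4.64, 2.97 and -3.55. Batch 3 has day 0 libraries only, 1 of sh003 and 1 of control cells. Day changes without batch therefore partly compare batches in these lines. In control cells, H19 rose by 3.78. Neither receptor passed the test in any line. The question was what the IGF genes do when each line goes through 7 days of culture with RA. In bulk RNA, fewer cells of a type and less RNA per cell cannot be told apart.

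IGFBP6, the binding protein that prefers IGF2, had 531 RPKM in sh1 batch 2, 410 RPKM in sh2 batch 1 and 430 RPKM in sh2 batch 2 of sh003 cells at day 7, against 12.2, 30.7 and 17.5 RPKM at day 0. Every sh003 day 7 library was above every day 0 library. The group means were 457 ± 65.01 RPKM at day 7 and 20.1 ± 9.53 RPKM at day 0 (SD, n = 3 each). In the limma test on log2(RPKM + 0.5) the change was 4.56 (SE 0.86, adjusted p = 0.0218 over 19461 genes), and 4.64 (adjusted p = 0.0135) with batch as a term. In control cells IGFBP6 had 182 and 56.9 RPKM at day 7, against 5.72, 4.30 and 8.92 RPKM at day 0. The control groups did not overlap either. The change in control cells was 3.96 (SE 0.96), with limma's adjusted p = 0.0947, and 3.95 with adjusted p = 0.0463 when batch was a term. In sh004 cells the hairpins parted: sh1 had 166 RPKM and sh2 7.68 RPKM at day 7, against 5.42 and 5.59 RPKM at day 0. All monolayer groups share a common spread per gene in the fit, so this split also enters the p-values of sh003 and control cells. The sh004 change of 2.62 did not pass limma's test (adjusted p = 0.534), and it was 4.79 (adjusted p = 0.0171) without the sh2 day 7 library, with the lone remaining library assumed to vary like the others. That sh2 library was also the one with the low CYP26A1 value.

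H19 was low at day 0, with a single higher library. In control cells it had 41.7 and 17.3 RPKM at day 7, against 2.005, 1.34 and 1.22 RPKM at day 0. Day 7 and day 0 were apart without overlap, and the change was 3.78 (SE 0.60, limma adjusted p = 0.0155). In sh003 cells it had 21.3, 10.6 and 9.70 RPKM at day 7, against 1.54, 1.29 and 1.04 RPKM at day 0. These groups did not overlap either, and the change was 2.92 (SE 0.54, limma adjusted p = 0.0201). In sh004 cells sh1 had 31.8 RPKM and sh2 37.1 RPKM at day 7, against 12.1 and 1.88 RPKM at day 0. The sh1 library at day 0 stood above all other day 0 libraries. The sh004 change of 2.67 did not pass limma's test (adjusted p = 0.181) and was 3.87 (adjusted p = 0.0326) without that day 0 library.

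IGFBP3, the main carrier of IGFs in blood, went the other way. In sh003 cells it had 4.02, 3.61 and 7.99 RPKM at day 7, against 176, 55.1 and 68.8 RPKM at day 0. All 3 day 7 libraries were below all 3 day 0 libraries, and the change was -4.02 (SE 0.52, limma adjusted p = 0.00289), or -3.55 (adjusted p = 0.000658) with batch as a term. In control cells it had 3.56 and 1.79 RPKM at day 7, against 13.7, 15.98 and 40.9 RPKM at day 0. The control groups did not overlap, and the change of -2.81 (SE 0.58) had an adjusted p of 0.0527 in limma without batch and was -2.32 with an adjusted p of 0.00975 with it. In sh004 cells it had 11.3 and 12.6 RPKM at day 7, against 15.2 and 29.6 RPKM at day 0. These groups did not overlap, but the change of -0.80 (SE 0.64) did not pass limma's test (adjusted p = 0.898). The difference between the sh004 and the control change was 2.002 (SE 0.86, limma adjusted p = 1.00), so a difference between the lines was not shown.

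**Figure D2:**
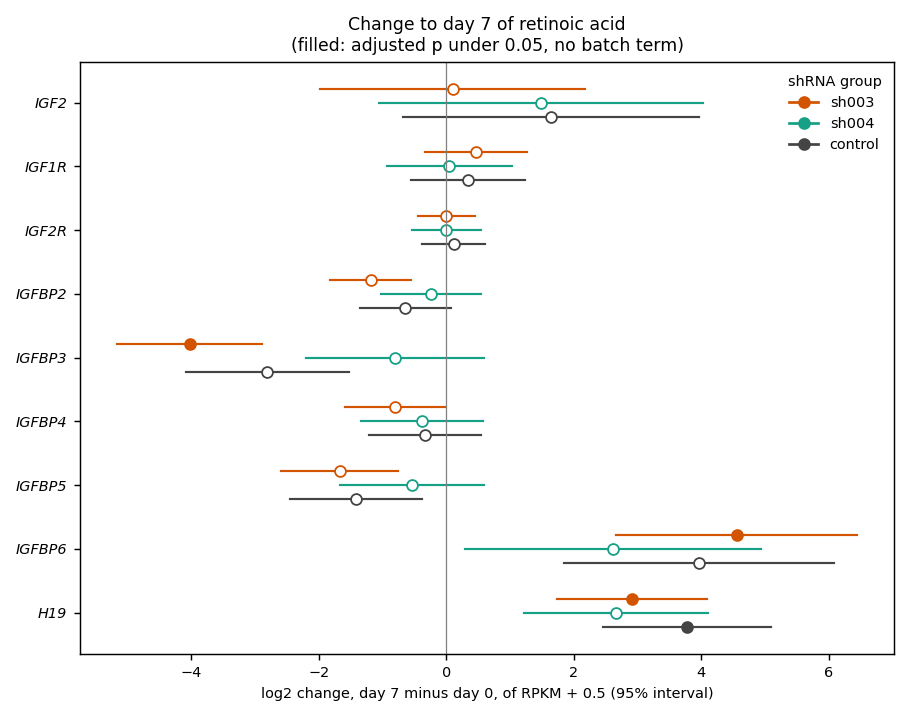
Change at day 7 relative to day 0 (log2 scale, day 7 minus day 0) of 9 genes in sh003, sh004 and control cells, with 95% intervals. Filled points passed the test at an adjusted p under 0.05 without batch in the model: H19 in sh003 and control cells, and IGFBP6 and IGFBP3 in sh003 cells.

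Of the 9 genes tested, 3 passed in sh003 cells, where 2.35% of all genes tested passed, and 1 in control cells, where 0.956% passed. In sh004 cells 0 passed in limma, where 0.38% of all genes passed, while 2 had an unadjusted p under 0.05 and 0 passed with voom on the recovered reads. When batch was a term, 5 passed in sh003 cells (14.3% of all genes) and 3 in control cells (7.68% of all genes). The genes added were IGFBP2 and IGFBP5 in sh003 cells, and IGFBP3 and IGFBP6 in control cells. Values of the days lay apart for 6 of 9 genes in sh003 cells (23.6% of all genes), for 6 of 9 in control cells (27.2%) and for 4 of 9 in sh004 cells (39%). The median change of the 9 genes was 0.01 in sh003 cells and 0.12 in control cells, beside 0.05 and 0.15 over all genes tested.

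IGFBP2, a carrier abundant in the nervous system, had 64.6, 53.1 and 29.2 RPKM in sh003 cells at day 7, against 113, 128 and 83.6 RPKM at day 0. Day 7 lay below day 0 in every library, and the change of -1.19 (SE 0.29) had a limma adjusted p of 0.0585 without batch and was -1.09 with an adjusted p of 0.0235 with it. IGFBP5, a carrier that binds extracellular matrix, had 10.5, 6.76 and 7.68 RPKM in sh003 cells at day 7, against 56.9, 22.2 and 15.8 RPKM at day 0. Its day 7 libraries were also all below day 0, with a change of -1.67 (SE 0.42), a limma adjusted p of 0.0627 without batch, and -1.27 with an adjusted p of 0.0257 with it. IGFBP4, an inhibitory carrier cleaved by pappalysin, had 58.5, 69.8 and 69.2 RPKM in sh003 cells at day 7, against 150, 91.8 and 110 RPKM at day 0. These groups did not overlap, and the change of -0.80 did not pass limma's test (adjusted p = 0.260). In control cells IGFBP5 had 6.50 to 12.2 RPKM at day 7, against 18.6 to 31.6 RPKM at day 0. IGFBP2 there had 36.0 to 59.7 RPKM, against 64.5 to 82.3 RPKM at day 0. Neither overlapped between the days. In sh004 cells IGFBP5 had 6.81 to 9.39 RPKM at day 7, against 9.88 to 14.1 RPKM at day 0, without overlap. IGFBP2 overlapped in sh004 cells, and IGFBP4 in sh004 and control cells. With all libraries, none of these carriers passed in control or sh004 cells.

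IGF2 itself gave no call at day 7. In control cells it had 353 and 333 RPKM at day 7, against 200, 134 and 48.9 RPKM at day 0. Both day 7 libraries were above all day 0 libraries, and the change of 1.64 (SE 1.06) had a limma adjusted p of 0.543. In sh003 cells the change was 0.10 (limma adjusted p = 1.00), and the libraries of each day differed among themselves, as given below. In sh004 cells sh1 had 102 RPKM and sh2 773 RPKM at day 7, against 191 and 52.0 RPKM at day 0, so the hairpins went in opposite directions. The sh2 day 7 library stood apart in other values too, with a neuroblast marker sum of 3026 RPKM, against 703 RPKM in sh1, and CYP26A1 at 9.001 RPKM, against 301 RPKM in sh1. Their part in the IGF2 value was not tested. IGF1R lay between 20.7 and 75.8 RPKM and IGF2R between 37.2 and 62.7 RPKM over all 15 monolayer libraries.

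Some of these calls missed the threshold when any 1 of several libraries was left out, and each kept its direction. The IGFBP6 call in sh003 cells missed the threshold without sh1 batch 3 day 0 (limma adjusted p = 0.0516), sh1 batch 2 day 7 (0.0565), sh2 batch 1 day 7 (0.0630), sh2 batch 2 day 0 (0.0883) or sh2 batch 2 day 7 (0.0891), with changes of 4.26 to 4.64. The H19 call in sh003 cells missed it without sh1 batch 2 day 7 (0.0563), sh2 batch 1 day 0 (0.0618), sh2 batch 1 day 7 (0.0513), sh2 batch 2 day 0 (0.0863) or sh2 batch 2 day 7 (0.0582), with changes of 2.58 to 3.12. In control cells the H19 call missed it without batch 1 day 7 (change 3.16, 0.188), batch 2 day 0 (3.72, 0.0578) or batch 2 day 7 (4.40, 0.0545). The IGFBP3 call in sh003 cells held without each of the 15 libraries in turn. With batch as a term, the IGFBP6 call in sh003 cells missed it without sh2 batch 2 day 0 (0.0847). Without the 2 libraries whose tag goes against the title, IGFBP3 was the 1 gene that passed in sh003 cells. Of near misses, IGFBP2 in sh003 cells passed without sh1 batch 2 day 7 (-1.42, 0.0423), IGFBP3 in control cells without sh003 sh1 batch 3 day 0 (-2.81, 0.0329), and IGFBP6 in control cells without either sh004 day 7 library (3.96, 0.00540 and 0.00543).

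Some calls made with batch as a term also missed the threshold when single libraries were left out. H19 in sh003 cells missed the threshold without sh2 batch 1 day 0 (limma adjusted p = 0.0612) or sh2 batch 2 day 0 (0.0912). In control cells it missed it without batch 1 day 0 (3.93, 0.0656), batch 1 day 7 (3.17, 0.117) or batch 2 day 7 (4.39, 0.0611). In sh003 cells IGFBP2 and IGFBP5 missed the threshold without sh2 batch 1 day 0 (limma adjusted p = 0.0929 and 0.0802), sh2 batch 1 day 7 (0.108 and 0.130), sh2 batch 2 day 0 (0.107 and 0.0802) or sh2 batch 2 day 7 (0.0584 and 0.0693). In control cells IGFBP3 missed it without batch 1 day 0 (-2.35, 0.0629) or batch 2 day 7 (-1.71, 0.106), and moved to -2.93 (0.0225) without batch 1 day 7. IGFBP2 in control cells passed without sh003 sh1 batch 2 day 7 (-0.62, 0.0442), and IGFBP6 in control cells kept its call only when either sh004 day 7 library was left out, with adjusted p up to 0.256. Within a batch and hairpin, the log2 ratio of day 7 to day 0 for IGFBP6 was 3.72 to 4.58 in 2 sh003 pairs, 0.43 to 4.81 in 2 sh004 pairs and 3.58 to 4.87 in 2 control pairs. For H19 it was 2.63 to 2.73 in sh003, 1.36 to 3.98 in sh004 and 3.27 to 4.08 in control pairs. For IGFBP3 it was -3.76 to -3.03 in sh003, -1.21 to -0.40 in sh004 and -2.85 to -1.81 in control pairs. Direction was the same in all 6 pairs for each of these 3 genes. It was also the same for IGFBP2 and IGFBP5, both lower at day 7, and for 30.4% of all genes tested.

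The make-up of the binding protein pool differed between the days. Levels per length were added over IGFBP2 to IGFBP7, and IGFBP6 made up 78.0 ± 2.19% of that sum in sh003 cells at day 7 and 5.90 ± 3.49% at day 0 (SD, n = 3 each). In control cells it made up 58.7% and 39.9% at day 7, against 3.33%, 2.71% and 3.81% at day 0. In sh004 cells it made up 54.1% in sh1 and 6.98% in sh2 at day 7, against 3.45% in both at day 0. IGFBP6 was the leading binding protein in 6 of 7 day 7 libraries, all but sh004 sh2. At day 0 the leading gene was IGFBP2, IGFBP3 or IGFBP4. The summed level was 585 ± 72.2 RPKM in sh003 cells at day 7 and 377 ± 114 RPKM at day 0. In sh004 cells the sum was 306 RPKM in sh1 and 110 RPKM in sh2 at day 7, against 157 and 162 RPKM at day 0. Control cells had a sum of 309 and 143 RPKM at day 7, against 172, 159 and 234 RPKM at day 0. The days did not overlap in sh003 cells, and overlapped in sh004 and control cells.

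**Figure D3:**
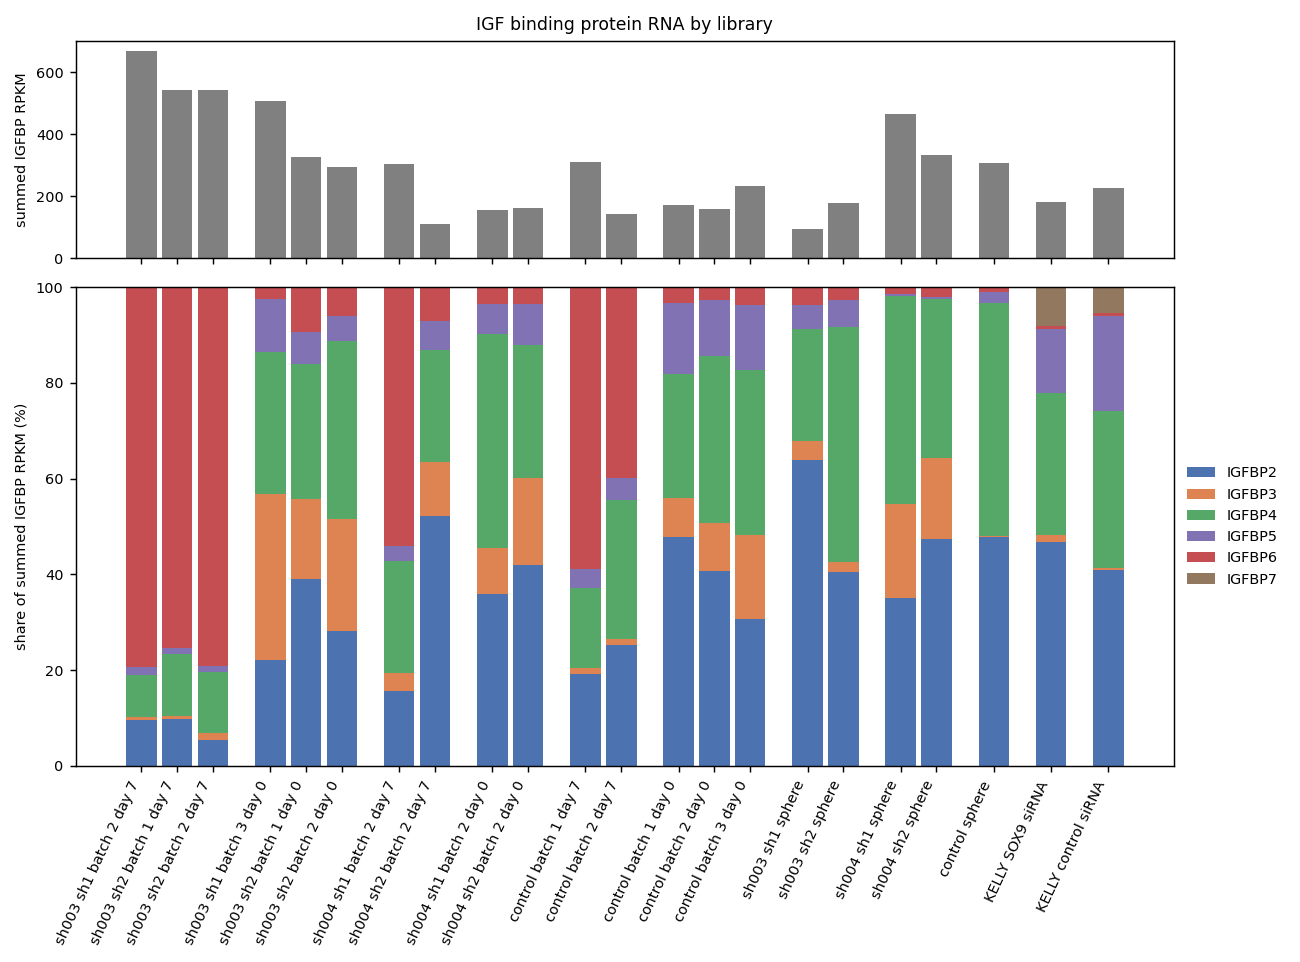
Summed RPKM of IGFBP2 to IGFBP7 per library (top) and the percent share of each gene in that sum (bottom, stacked), for monolayers, spheres and KELLY cells, whose tables were deposited separately. IGFBP6 fills 39.9% to 79.4% of the sum in the day 7 libraries other than sh004 sh2, where it fills 6.98%.

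Between sh003 and control cells of the same day, no IGF gene passed the test without batch, and IGFBP3 was the gene closest to it at day 0. IGFBP3, IGFBP4 and IGFBP6 were higher in sh003 libraries than in the control library of their batch and day in 6 of 6 comparisons each, as were 7.13% of all genes tested. IGF2 was lower in 5 of 6, and 29.2% of all genes were lower in 5 or 6 of them. The 6 comparisons use 5 control libraries, since sh1 and sh2 of batch 2 at day 7 are set against the same one, and the batch 2 controls also serve sh004.

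At day 0 IGFBP3 had 176, 55.1 and 68.8 RPKM in sh003 cells, against 13.7, 15.98 and 40.9 RPKM in control cells. Every sh003 library was above every control library, and the difference of 2.04 (SE 0.52) had a limma adjusted p of 0.446. With batch as a term it was 2.04 (SE 0.32, adjusted p = 0.0407), where 0.252% of all genes passed. The same-batch log2 ratios at day 0 were close together, between 1.97 and 2.09. At day 7 they ranged from 0.02 to 1.89.

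With batch as a term, the day 0 IGFBP3 difference lost its call without control batch 1 day 0 (limma adjusted p = 0.254), control batch 2 day 0 (0.163), control batch 3 day 0 (0.0823), or, among sh003 libraries, sh1 batch 3 day 0 (0.0822), sh2 batch 1 day 0 (0.286) or sh2 batch 2 day 0 (0.173). It also lost it without control batch 1 day 7 (0.0513), or, in sh003, sh1 batch 2 day 7 (0.0532) or sh2 batch 1 day 7 (0.0628). The size of the IGFBP3 difference stayed between 1.98 and 2.12. Of the 9 genes, 0 passed limma without batch, where 0.00514% of all genes passed, and 3 (IGF2, IGFBP3 and IGFBP4) had an unadjusted p under 0.05. With voom on the recovered reads 0 passed. Without overlap between groups were 4 of 9 genes, all higher in sh003 (9.02% of all genes). The median difference of the 9 was 0.37, beside -0.06 over all genes.

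IGFBP4 had 150, 91.8 and 110 RPKM in sh003 cells at day 0, against 44.6, 55.4 and 80.8 RPKM in control cells. Here too the sh003 libraries lay above all controls, and the difference of 0.97 (SE 0.36) did not pass limma's test (adjusted p = 0.741). In the model with batch it passed when sh004 sh1 day 7 or sh004 sh2 day 7 was left out (adjusted p = 0.0416 and 0.0414), and not otherwise (0.271 with all libraries). IGFBP6 had 12.2, 30.7 and 17.5 RPKM in sh003 cells at day 0, against 5.72, 4.30 and 8.92 RPKM in control cells. These did not overlap either, and the difference of 1.55 (SE 0.86) did not pass (limma adjusted p = 0.948).

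IGF2 differed among the sh003 libraries. At day 0 the 1 sh1 library is the only sh003 library of batch 3, whose control was also the lowest control, so hairpin and batch cannot be told apart there, and at day 7 sh1 is 1 library. At day 0 it had 60.002 RPKM in sh1 batch 3, and 14.6 and 8.81 RPKM in sh2, against 200, 134 and 48.9 RPKM in control cells. Both sh2 libraries were below all control libraries, while sh1 was above the control library of its own batch, with a log2 ratio of 0.29. At day 7 it had 50.3 RPKM in sh1 and 19.6 and 9.88 RPKM in sh2, against 353 and 333 RPKM in control cells. All 3 sh003 libraries were below both control libraries, with same-batch log2 ratios between -5.00 and -2.71. The day 7 difference was -3.97 (SE 1.06, limma adjusted p = 0.566), and -3.92 (adjusted p = 0.179) with batch as a term. Its 95% interval without batch, not adjusted for the number of genes, was -6.29 to -1.65.

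Also at day 7, IGFBP6 averaged 457 ± 65.01 RPKM in sh003 cells (n = 3) and 119 ± 88.3 RPKM in control cells (SD, n = 2), without overlap. The difference of 2.15 (SE 0.96) did not pass limma's test (adjusted p = 0.680). In the model with batch it was 2.25, with an adjusted p of 0.336 over all libraries and of 0.0344 when either sh004 day 7 library was left out. Of the 9 genes 0 passed limma at day 7, where 0% of all genes passed, 2 (IGF2 and IGFBP6) had an unadjusted p under 0.05, and voom passed 0. The groups did not overlap for 4 of 9 genes (22.8% of all genes). The difference between the sh003 and the control change over the days passed limma for 0 of 9 genes, also 0 by unadjusted p at 0.05 and 0 with voom, where 0% of all genes passed.

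Marker sums also differed between sh003 and control cells. The summed level of neuroblast markers was 750 to 1448 RPKM in sh003 libraries and 1191 to 2214 RPKM in control libraries, and it was lower in the sh003 library than in the control of the same batch and day in 6 of 6 comparisons. The summed level of mesenchymal markers was 443 to 672 RPKM in sh003 libraries and 235 to 571 RPKM in control libraries. This sum was higher in the sh003 library than in the control of the same batch and day in 6 of 6 comparisons, with 7 to 9 of 10 markers at 1 RPKM or more over the monolayers and PRRX1 at 0 in some libraries. Among neuroblast markers, TH was at 0 in sh003 sh1 batch 2 at day 7. In sh004 cells the neuroblast sum was lower than in the same-batch control in 3 of 4 comparisons. The mesenchymal sum was higher there in 3 of 4, and sh2 at day 7 was the exception for both lists. Abundant markers can lead a sum, and single markers were not compared. The part of either list in the IGFBP3, IGFBP4, IGFBP6 and IGF2 values was not tested.

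**Figure D4:**
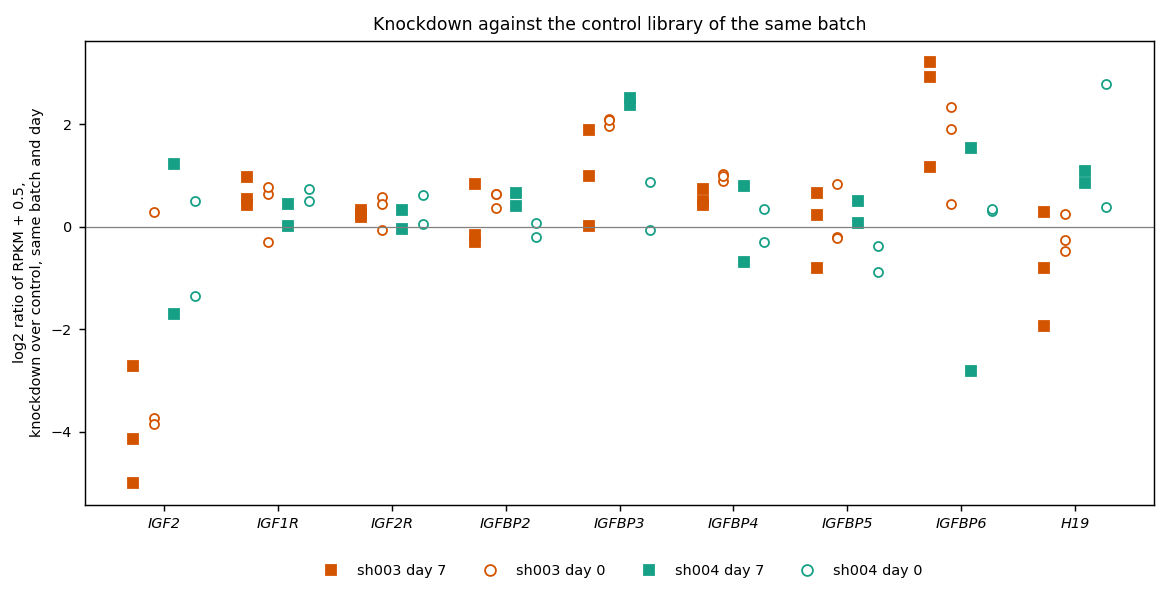
Log2 ratio of each knockdown library to the control library of the same batch and day, by gene. Orange is sh003 and green sh004, squares are day 7 and open circles day 0. IGFBP3, IGFBP4 and IGFBP6 lie above 0 in all 6 sh003 comparisons, and IGF2 lies below 0 in 5 of 6.

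Between sh004 and control cells, no IGF gene passed the test at either day. IGFBP3 at day 7 was the widest gap, with 11.3 and 12.6 RPKM in sh004 cells, against 3.56 and 1.79 RPKM in control cells. Both sh004 libraries were above both controls, and the difference of 2.03 (SE 0.64) had a limma adjusted p of 0.520, or 1.97 and 0.115 with batch as a term. All sh004 libraries belong to batch 2, so each day has a single same-batch control. H19 had 31.8 and 37.1 RPKM in sh004 cells at day 7, against 41.7 and 17.3 RPKM in control cells, so the groups overlapped. At day 0 its difference of 1.46 did not pass (limma adjusted p = 1.00). IGFBP6 at day 7 had 166 RPKM in sh1 and 7.68 RPKM in sh2, against 182 and 56.9 RPKM in control cells. The sh2 library alone was below both controls, and with batch as a term and sh1 day 7 left out the difference was -3.35 (limma adjusted p = 0.0413). That value sets 1 library, the one with CYP26A1 at 9.001 RPKM, against the controls and assumes that it varies like the other groups.

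In limma 0 of 9 genes passed for sh004 against control at day 0 and 0 at day 7, where 0% of all genes passed on each day. At an unadjusted p under 0.05 there was 1 at each day (H19 at day 0, IGFBP3 at day 7), and voom passed 0 at both. Without overlap was 1 of 9 genes at day 7 (33% of all genes) and 1 of 9 at day 0 (17.8%). For the change over the days in sh004 against control, 0 of 9 passed limma (0% of all genes) and voom, and 1, IGFBP3, had an unadjusted p under 0.05.

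Set against each other in monolayer, sh003 and sh004 cells were farthest apart in IGF2 and IGFBP6 at day 7, without passing the test. IGF2 had 50.3, 19.6 and 9.88 RPKM in sh003 cells, against 102 and 773 RPKM in sh004 cells. All sh003 libraries were below both sh004 libraries, and the difference of -3.68 (SE 1.06) had a limma adjusted p of 0.250. IGFBP6 had 531, 410 and 430 RPKM in sh003 cells, against 166 and 7.68 RPKM in sh004 cells. These did not overlap, and the difference of 3.62 (SE 0.96) had a limma adjusted p of 0.233. Without sh004 sh1 day 7, where the lone sh2 library with the low CYP26A1 value stands for the group, IGFBP6 differed by 5.80 (adjusted p = 0.00373). With batch as a term and without that library, IGF2 differed by -5.22 (0.0285), IGFBP4 by 1.35 (0.0149) and IGFBP6 by 5.60 (0.00120).

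With all libraries 0 of 9 genes passed limma between the knockdowns at day 7, where 0.0206% of all genes passed, 3 (IGF2, IGFBP6 and H19) had an unadjusted p under 0.05, and voom passed 0. At day 0 also 0 of 9 passed, where 0.00514% of all genes passed, 5 had an unadjusted p under 0.05, and voom passed 0. The groups did not overlap for 6 of 9 genes at day 0 (26.1% of all genes) and for 4 of 9 at day 7 (28.9%).

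In spheres, the knockdowns parted on 6 of the 9 IGF genes. The receptors IGF1R and IGF2R and the carrier IGFBP5 were higher in sh003 spheres than in sh004 spheres, and IGFBP2, IGFBP3 and H19 were lower. This is 3 in each direction, in a comparison where 39.9% of all genes tested passed. Against the single control sphere, IGFBP3 was higher in sh004 spheres and passed the test, in which the spread comes from the knockdown spheres alone and the control sphere is assumed to vary like them. Sphere levels come from a table deposited separately from the monolayers, so no test was made between the culture forms.

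IGFBP3 had 92.1 and 55.9 RPKM in sh004 spheres, 3.78 and 3.76 RPKM in sh003 spheres and 1.06 RPKM in the control sphere. Both sh004 spheres stood far above the other 3 spheres. Against the control sphere the sh004 difference was 5.54 (SE 0.34, limma adjusted p = 0.0168 over 14711 genes), a ratio of means of 70.1, where 0.129% of all genes passed. It missed the threshold without the sh1 sphere (5.18, adjusted p = 0.301) or the sh2 sphere (5.90, adjusted p = 0.177). Between sh003 and sh004 spheres the IGFBP3 difference was -4.08 (SE 0.27, limma adjusted p = 0.00756). IGFBP3 made up 18.3 ± 2.08% of the summed binding protein level in sh004 spheres (SD, n = 2) and 0.343% in the control sphere.

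The receptors showed smaller gaps. IGF1R had 24.5 and 30.5 RPKM in sh003 spheres, against 12.2 and 10.0 RPKM in sh004 spheres. IGF2R had 39.7 and 31.1 RPKM in sh003 spheres, against 22.7 and 15.6 RPKM in sh004 spheres. Neither gene's groups overlapped, and the differences were 1.27 (SE 0.21, limma adjusted p = 0.00997) for IGF1R and 0.88 (SE 0.25, adjusted p = 0.0353) for IGF2R. The control sphere had 14.7 RPKM of IGF1R and 16.9 RPKM of IGF2R.

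Among the carriers, IGFBP2 had 60.2 and 71.8 RPKM in sh003 spheres, against 163 and 157 RPKM in sh004 spheres. IGFBP5 had 4.73 and 10.1 RPKM in sh003 spheres, against 1.68 and 1.46 RPKM in sh004 spheres. The groups did not overlap for either, with differences of -1.28 (SE 0.19, limma adjusted p = 0.00885) for IGFBP2 and 1.85 (SE 0.36, adjusted p = 0.0127) for IGFBP5. H19 had 698 and 417 RPKM in sh003 spheres, against 952 and 1396 RPKM in sh004 spheres, without overlap, and differed by -1.10 (SE 0.32, limma adjusted p = 0.0384). IGFBP4 had 21.996 and 87.1 RPKM in sh003 spheres, against 203 and 111 RPKM in sh004 spheres. It did not overlap but missed the threshold, with a difference of -1.76 (limma adjusted p = 0.0678). IGF2 was abundant in every sphere, with 729 and 565 RPKM in sh003 spheres, 952 and 458 RPKM in sh004 spheres and 818 RPKM in the control sphere, and these ranges overlapped.

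All 6 sphere calls between the knockdowns were lost without the sh003 sh2 sphere (limma adjusted p of 0.0656 to 0.179) or without the sh004 sh2 sphere (0.0617 to 0.206). IGF2R, IGFBP5 and H19 were also lost without the sh004 sh1 sphere (0.0524, 0.0616 and 0.0793), and IGF2R without the sh003 sh1 sphere (0.142). The directions held in each case. For the sh004 sh2 library the labels give a sphere only in the title, with no tag on its culture. Without the filter on low values 0 of the 9 passed in either sphere comparison with sh004, and with RPKM as deposited 1, IGFBP3, passed between the knockdowns. Each sphere library of a group is a different hairpin, so the spread includes that of the hairpins. The groups did not overlap for 8 of 9 genes (75.9% of all genes). Between sh003 spheres and the control sphere 0 of 9 passed limma, where 0% of all genes passed, 4 (IGF1R, IGF2R, IGFBP2 and IGFBP3) had an unadjusted p under 0.05, and voom passed 0.

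**Figure D5:**
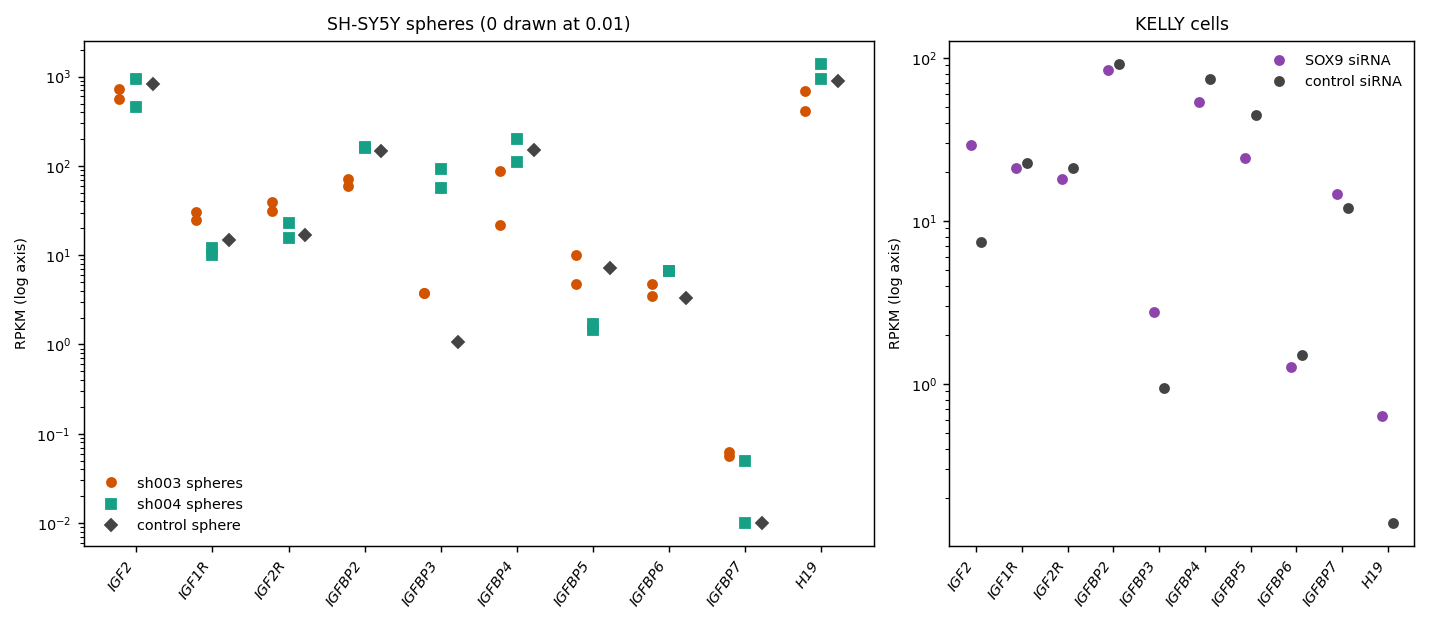
RPKM (log axis) of the 10 genes in the 5 spheres and the 2 KELLY libraries, 1 point per library, with 0 drawn at 0.01, from tables deposited separately. Orange is sh003, green sh004 and black the control sphere, and in the KELLY panel purple is SOX9 siRNA and black control siRNA. IGFBP3 stands at 55.9 and 92.1 RPKM in sh004 spheres and at 1.06 to 3.78 RPKM in the other spheres, and IGFBP7 is above 10 RPKM in KELLY cells only.

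KELLY cells carry many copies of MYCN and had 1052 RPKM of it with SOX9 siRNA and 787 RPKM with control siRNA. With 1 library per group there is no replicate check and no test, so these values compare the libraries. The targeted gene SOX9 had 92 reads (0.974 RPKM) with SOX9 siRNA and 562 reads (5.61 RPKM) with control siRNA. IGF2 was higher with SOX9 siRNA, with 4883 reads (29.1 RPKM) against 1323 reads (7.44 RPKM) with control siRNA. The ratio was 3.92, with a 95% counting interval of 3.68 to 4.17 that covers counting error only. IGFBP3 had 294 reads (2.74 RPKM) with SOX9 siRNA and 107 reads (0.941 RPKM) with control siRNA, a ratio of 2.92 (2.33 to 3.67). These were the 2 of 9 genes past a change of 1 on the log2(RPKM + 0.5) scale, at 1.90 and 1.17, and 4% of 14340 genes were past it in either direction. With a pseudocount of 1, IGFBP3 was at 0.95 and no longer past it.

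Other carriers moved less in KELLY cells. IGFBP5 had 24.5 RPKM with SOX9 siRNA and 44.9 RPKM with control siRNA, a ratio of 0.546 (0.525 to 0.568). IGFBP4 had 53.9 RPKM with SOX9 siRNA and 74.3 RPKM with control siRNA, a ratio of 0.725 (0.691 to 0.760). IGFBP7, a carrier with weak IGF binding, had 14.6 RPKM with SOX9 siRNA and 12.0 RPKM with control siRNA. H19 had 43 reads with SOX9 siRNA and 10 with control siRNA, both under 1 RPKM, so it was the 1 gene of the 10 outside the KELLY background. The median change of the 9 genes was -0.12, beside 0.05 over all genes.

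Other genes of the pathway were followed through a list of 50, of which 36 were measured in monolayers. ADAM12, a metalloprotease that cleaves IGF binding proteins, was the only one that passed between the days without batch, and it fell in every line. It averaged 4.16 ± 0.787 RPKM in sh003 cells at day 7 and 25.3 ± 6.19 RPKM at day 0 (n = 3 each), a change of -2.45 (limma adjusted p = 0.000464). In sh004 cells it averaged 1.35 ± 0.469 RPKM at day 7 and 13.4 ± 2.39 RPKM at day 0 (n = 2 each), a change of -2.92 (limma adjusted p = 0.00158). In control cells it averaged 2.68 ± 0.975 RPKM at day 7 (n = 2) and 16.7 ± 1.66 RPKM at day 0 (SD, n = 3), a change of -2.47 (limma adjusted p = 0.00152). Thus 0 of 36 rose and 1 fell in each line, and the ADAM12 call held without each of the 15 libraries in turn. Of all genes, 2.35% passed without batch in sh003, 0.38% in sh004 and 0.956% in control cells. When batch was a term, 6 of 36 passed in sh003 cells, 2 higher and 4 lower at day 7, where 14.3% of all genes passed. FOXO1, a transcription factor restrained by insulin signalling (1.52, limma adjusted p = 0.0204), and TSC1, a brake on mTOR (0.49, 0.0202), rose. ADAM12 (-2.49, 0.000684), the receptor adaptor IRS2 (-0.83, 0.0238), PAPPA, a pappalysin that cleaves IGFBP4 (-1.11, 0.0498), and DLK1, an imprinted surface protein gene (-3.34, 0.0413), fell. In control cells 2 of 36 passed with batch, where 7.68% of all genes passed. Both fell, ADAM12 (-2.54, limma adjusted p = 0.00136) and EIF4EBP1, a repressor of translation under mTOR (-1.39, 0.0111). EIF4EBP1 missed the threshold without batch 1 day 7 (0.0608) or batch 2 day 7 (0.121). PAPPA held without 3 of the 15 libraries in turn and DLK1 without 2, with adjusted p up to 0.229 and 0.154. TSC1 missed it without sh2 batch 1 day 0 (0.0757), sh2 batch 1 day 7 (0.0826), sh2 batch 2 day 0 (0.154) or sh2 batch 2 day 7 (0.0663). FOXO1 and IRS2 missed the threshold without sh1 batch 2 day 7 (0.0514 and 0.0586), sh2 batch 1 day 0 (0.102 and 0.115), sh2 batch 1 day 7 (0.0573 and 0.0748), sh2 batch 2 day 0 (0.0979 and 0.12001) or sh2 batch 2 day 7 (0.0520 and 0.0532).

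Without batch, few genes of any kind passed in the monolayer knockdown comparisons. PLAGL1, an imprinted zinc finger gene, was higher in sh003 than in sh004 cells at day 7, with 6.91 ± 1.28 RPKM in sh003 cells (n = 3) and 1.85 ± 0.210 RPKM in sh004 cells (SD, n = 2), a difference of 1.64 (limma adjusted p = 0.0435). That call held without 5 of the 15 libraries in turn and missed the threshold without the other 10, with adjusted p up to 0.405 without sh004 sh2 day 7. With batch as a term the difference was 1.698 (limma adjusted p = 0.00991), and it missed the threshold only without sh003 sh2 batch 2 day 7 (0.0622). Without batch, 0.0206% of all genes passed between sh003 and sh004 cells at day 7. In the other monolayer comparisons of a knockdown with control or with the other knockdown, 0 of 36 passed. Without batch, 0% to 0.00514% of all genes passed in those. In spheres 19 of 34 were higher and 3 lower in sh003 than in sh004 spheres, where 39.9% of all genes passed in either direction. CDKN1C, an imprinted cell cycle inhibitor near IGF2, averaged 95.6 ± 30.1 RPKM in sh003 spheres and 3.64 ± 0.150 RPKM in sh004 spheres (SD, n = 2 each), and was 35.2 RPKM in the control sphere. Its difference was 4.50 between the knockdowns and -3.11 (limma adjusted p = 0.0391) between sh004 spheres and the control sphere. The CDKN1C call between the knockdowns missed the threshold without the sh003 sh2 sphere (0.0656) or the sh004 sh2 sphere (0.0617), and that against the control sphere, a group of 1 library, without the sh004 sh1 sphere (0.301) or the sh004 sh2 sphere (0.262). The ligand IGF1 reached at most 0.06 RPKM in any monolayer. In KELLY cells 1 of 32 was past a change of 1 on the log2 scale. It was STC1, an inhibitor of pappalysin, which had 36.3 RPKM with SOX9 siRNA and 17.7 RPKM with control siRNA. Of 14340 genes, 4% were past that change in either direction.

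Across the 15 monolayer libraries, the gene whose log2 level was most like that of IGFBP6 was ZFP36 (Pearson r = 0.988), followed by LTBP3 (0.985), among 11902 genes searched. For IGFBP3 it was ISOC1 (0.936), for H19 C19orf12 (0.939), for IGF2 NEUROG2 (0.924), for IGF1R MAFG (0.853) and for IGF2R PIEZO1 (0.880). For IGFBP2 it was RHOB (0.888), for IGFBP4 ENG (0.896) and for IGFBP5 PGBD2 (0.880). The libraries share batches, days and hairpins, so these are descriptions. The counting of shared bases and the strand setting are not given in the sources used here. In GENCODE 29, IGF2 shares 20.9% of its exonic bases with INS-IGF2 on the same strand and 4.77% with IGF2-AS on the other, while IGFBP3, IGFBP6 and both receptors share none.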

How the data were processed

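The authors deposited RPKM values for 63677 Ensembl genes in 3 tables (monolayers, spheres, KELLY). Per the submitters' processing notes, TopHat, Subread, featureCounts and the hg19 build were used. Versions and the strand setting are not given in the sources used here. Symbols were found for 52181 genes.

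Every deposited RPKM value gave a whole number of reads (tolerance 0.01), 11.9 to 37.9 M per monolayer, 27.8 to 62.1 M per sphere and 24.0 to 25.5 M per KELLY library. The sphere RPKM used 10 library totals that rotate over the rows, 5 of them equal to the totals of these spheres, so sphere RPKM was recomputed with each library's own total.

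Groups came from titles, since some culture tags go against the title or are absent. limma 3.58.1 (R 4.3.3; trended moderated test, 2-sided) was fitted on log2(RPKM + 0.5) over all genes with at least 1 RPKM in at least 2 libraries, with Benjamini-Hochberg adjustment and a call at 0.05. The groups of a table were fitted together and share a common spread per gene. A fold on this scale understates the change of low genes. Batch as a term was an alternative, and batch numbers pair the libraries by their labels: sh003 and control libraries that share a batch deviated together, with r of 0.802 to 0.942 at day 0 and 0.800 to 0.920 at day 7. Libraries of different batches gave r of -0.815 to 0.549 at day 0. With 2 controls at day 7, their deviations mirror each other. Other alternatives were pseudocounts, no filter, voom, median-ratio and quantile scaling, deposited sphere RPKM, and leaving out libraries. The script was tested on simulated data. KELLY ratios carry 95% counting intervals. Python 3.11.15, pandas 2.3.3 and matplotlib 3.10.9 were used.

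All 10 genes are reported. Further pathway genes are named when they passed a test or, in KELLY cells, a log2 change of 1, and look-alike genes by the highest Pearson r over monolayers among genes with a mean of at least 2 RPKM. The genes and lists were chosen with earlier results of these data known. Proteins, small RNA and allele-specific reads were not analysed here.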

Additional observations from a re-analysis of the deposited data

How the results depend on the processing

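Without batch in the model, 1 of 9 IGF genes passed between day 7 and day 0 in control cells, and 3 passed with batch as a term, 2 with a pseudocount of 0.1 and 2 with median-ratio scaling. In sh003 cells 3 passed, against 5 with batch as a term, 5 with median-ratio scaling and 1 without the 2 libraries whose culture tag goes against the title. Between sh003 and control cells at day 0 the count was 0, and 1 with batch as a term. In spheres the count of sh004 against control fell to 0 without the filter on low values, against 1 with it, and that of sh003 against sh004 to 0 without the filter and to 1 with RPKM as deposited, against 6. In the spheres the hairpin number marks different sequences and pairs nothing. With it as a block IGFBP4 also passed between the knockdowns (adjusted p = 0.0467). In KELLY cells 1 gene was past the log2 change of 1 with a pseudocount of 1, against 2. The cause of these changes was not tested. Some of these settings also change the number of libraries or genes that enter the fit.

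Leaving out 1 library at a time, with or without batch, the counts ran from 0 to 3 for day 7 in control cells, 1 to 5 in sh003 cells and 0 to 1 in sh004 cells. They ran from 0 to 2 for sh003 against control at day 0, 0 to 1 at day 7, 0 to 1 for sh004 against control at day 7, 0 to 3 for sh003 against sh004 at day 7, 0 to 1 for sh004 spheres against control and 0 to 6 for sh003 against sh004 spheres. Over 4125 values of single IGF genes under alternatives, 3581 kept their direction and side of the threshold and either moved within their error or stayed called. Calls were lost in 52 and gained in 75, and 0 reversed with a call. Among values with no call in either fit, 185 moved by more than their error, 47 of them with a change of sign, and another 232 changed sign within their error.

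Over all genes the counts of calls also moved. With batch as a term 1494 passed between the days in control cells, against 186 without it, 2779 against 458 in sh003 cells and 410 against 74 in sh004 cells. With voom on the recovered reads they were 105, 312 and 53, and with quantile scaling 107, 291 and 38. With RPKM as deposited 366 genes passed between sh003 and sh004 spheres, against 5865. The median of all genes between day 7 and day 0 in control cells was 0.15, and -0.03 under voom and quantile scaling. That for sh004 against control at day 7 was -0.15, and 0.10 under quantile scaling. Groups of 2 or 3 libraries, and a single control sphere, limit all of these tests.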

Other observations

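H19 sat higher in the spheres than in the monolayers, while the ranges of IGF2 overlapped. This compares separately deposited tables, with no test. IGF2 lay between 458 and 952 RPKM in the 5 spheres and between 8.81 and 773 RPKM in the 15 monolayers. H19 lay between 417 and 1396 RPKM in the spheres and between 1.04 and 41.7 RPKM in the monolayers. These genes were named here after their values were seen. IGFBP6 lay between 3.30 and 6.64 RPKM in the spheres, near the day 0 monolayers of control cells at 4.30 to 8.92 RPKM. IGFBP7 lay at 14.6 RPKM with SOX9 siRNA and 12.0 RPKM with control siRNA in KELLY cells, and at most at 0.236 RPKM in any SH-SY5Y library.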
